A study of Mus musculus with 2 samples.

Results

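Grem1, Nog, Chrd and Chrdl1 encode 4 secreted antagonists of the bone morphogenetic proteins (BMPs), and their transcripts were followed through the stromal cell types of the mouse colon and small intestine. The 4 genes were chosen by name, and all 4 were listed for both tissues, among 16381 (colon) and 18262 (small intestine) listed genes. Tissue came from healthy, untreated mice, with 1 library per tissue, and the labels do not say how many animals were used, nor their strain, sex or age. The epithelium was removed first, and collagenase with dispase then freed the stromal cells, in 60 min (colon) or 45 min (small intestine). Live cells without CD45 (immune) or CD326 (epithelial EpCAM) on their surface were then sorted, and about 16000 per tissue were loaded for droplet sequencing of 3' transcript ends. The comparisons below describe how the 4 transcripts were spread over the cell types that the authors had annotated, and how the colon and the small intestine differed within a type. No comparison has a replicate check, since each tissue is 1 library, and all 95% intervals given in brackets cover counting error only.

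BMPs are secreted ligands that signal through receptor kinases and the SMAD proteins, and in the gut they hold back proliferation and favour differentiation towards the surface of the epithelium. Antagonists released by stromal cells below the crypts bind BMPs outside the cell, keep them from their receptors and so protect the stem cell zone. Gremlin 1 (Grem1) is a cystine-knot protein of the DAN family and a known product of trophocytes, the CD81-positive fibroblasts that lie beneath the crypts. Noggin (Nog) masks the receptor-binding faces of BMPs. Chordin (Chrd) holds BMPs in a complex that proteases of the tolloid family open again, and chordin-like 1 (Chrdl1) is a relative of chordin with the same kind of cysteine-rich repeats.

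The colon library held 6018 cells with a median of 6598 UMIs (unique molecular identifiers, each marking 1 captured RNA molecule) per cell, and the small intestine library 9359 cells with a median of 5943. Labels of 53 cells or more in each library, 6 in all, were compared: CD81- FBs (CD81-negative fibroblasts, 3631 colon and 2823 small intestinal cells), trophocytes (875 and 1913), SEMFs (subepithelial myofibroblasts, 1105 and 1109), LECs (lymphatic endothelium, 217 and 2498), BECs (blood endothelium, 53 and 524) and SMCs (smooth muscle, 125 and 468). Levels are given as CPM, a gene's UMIs summed over the cells of a label and scaled to the same total for every label. Cd81 was at 585 and 560 CPM in colon and small intestinal trophocytes against 38.0 and 8.14 in CD81- FBs. BECs had the most Cd81, however (912 and 603 CPM). Pdgfra was highest in SEMFs (1137 and 2778 CPM) and Lyve1 in LECs (3462 and 2973 CPM). Not every listed marker followed its label. Sfrp1, from the trophocyte list, was at 911 and 1482 CPM in CD81- FBs against 395 and 999 CPM in trophocytes. Small intestinal trophocytes had more Cxcl13 (143 against 106 CPM) and Fgf7 (53.7 against 25.1 CPM), both CD81- FB markers, than CD81- FBs there. The small intestinal SMC label held both smooth muscle and fibroblast transcripts, and whether it holds mixed cells was not tested. Myh11 was at 1554 CPM in it. The fibroblast gene Adamdec1 was at 9211 CPM, above the 8191 CPM of small intestinal CD81- FBs and against 1242 CPM in colon SMCs. Ccl11 (2244 against 1115 CPM) and Fgf7 (47.4 against 25.1 CPM) were also above those CD81- FBs. Edil3 (53.8 against 268 CPM) and Cxcl13 (21.7 against 106 CPM) were below them. The 5 CD81- FB markers summed to 11578 CPM in the small intestinal SMC label, against 9705 CPM in small intestinal CD81- FBs and 1501 CPM in colon SMCs. The 6 smooth muscle markers summed to 4134 CPM in it, against 7216 CPM in colon SMCs. Ptprc, which encodes CD45, was at 14.8 CPM at most. The colon library mixed cells with Xist UMIs only (2700) and cells with Y-linked UMIs only (1751), while the small intestinal table has no entry for Xist, and 6896 of its cells had Y-linked UMIs. The libraries shared 21 cell barcodes (0.349% of the colon cells), and doublets were not removed.

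In the mouse genome (GRCm38, GENCODE annotation) Grem1 lies at chr2:113746164-113758646 on the minus strand with 2 exons, and Nog at chr11:89300638-89302332 on the minus strand with 1 exon. Chrd lies at chr16:20733127-20742384 on the plus strand, with 14 to 23 exons in its transcripts, and overlaps Thpo on the other strand, and whether reads were counted by strand is not given in the sources used here. Chrdl1 lies at chrX:143285674-143394262 on the minus strand, with 6 to 12 exons. RefSeq start regions were matched for 2 of the 4 genes, Grem1 and Chrd, and not for Nog and Chrdl1. They are shown because Grem1 and Chrd led in different cell types in the small intestine. Each window runs from 250 bases before to 50 bases after the RefSeq transcript start (GRCm38.p6), written 5′ to 3′ along the gene's strand, at chr2:113758599-113758898 (minus strand) for Grem1 and chr16:20732877-20733176 (plus strand) for Chrd. Capitals mark matches to the GC box, GGGCGG or CCGCCC by strand, and to the box CCAAT, whose other strand reads ATTGG.
Grem1: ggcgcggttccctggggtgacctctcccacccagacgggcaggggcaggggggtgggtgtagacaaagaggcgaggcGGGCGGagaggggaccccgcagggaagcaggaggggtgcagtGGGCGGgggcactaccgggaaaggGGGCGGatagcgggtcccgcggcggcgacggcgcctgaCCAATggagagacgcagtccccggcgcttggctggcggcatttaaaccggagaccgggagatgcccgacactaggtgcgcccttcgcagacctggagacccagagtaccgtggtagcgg
Chrd: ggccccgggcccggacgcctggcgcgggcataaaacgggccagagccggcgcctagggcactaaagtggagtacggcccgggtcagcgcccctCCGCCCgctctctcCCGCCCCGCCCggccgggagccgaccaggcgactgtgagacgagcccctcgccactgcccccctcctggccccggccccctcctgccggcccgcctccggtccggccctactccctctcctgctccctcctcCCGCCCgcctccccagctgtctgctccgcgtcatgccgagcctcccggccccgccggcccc
Both windows were rich in G and C (70.7% for Grem1 and 78.3% for Chrd, against a median of 52.7% over 32851 windows of the same length) and in CpG (28 and 34, against a median of 7). Grem1 had 3 GC boxes and 1 CCAAT box, whose first base lay at -69 from the start. Chrd had 4 GC boxes, all read from the strand opposite to the gene, of which those at -143 and -138 overlap by 1 base and the last began at -11, and no CCAAT box. A GC box was found in 35.7% of all windows and a CCAAT box in 37.4%. Neither window held TATAAA on either strand, which 13.6% of all windows did.

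Grem1 was by far the most abundant of the 4, with 12045 UMIs in the colon and 23551 in the small intestine, and it was a transcript of trophocytes and CD81- FBs. In trophocytes its level was 573 CPM (554 to 592) for the colon, and the small intestine had 1298 CPM (1280 to 1317). In CD81- FBs it was 336 CPM (328 to 343) and 168 CPM (163 to 174). SEMFs, the fibroblasts that lie against the epithelium, were almost without it, at 4.71 CPM (35 UMIs in 1105 cells) and 8.89 CPM (58 UMIs in 1109 cells). The colon SEMF level was below those in colon endothelium, where LECs had 35.7 CPM (38 UMIs) and BECs 44.5 CPM (12 UMIs, all in 2 cells). Endothelium, which should lack the gene, gives a level to read the SEMF levels against. Colon LECs had 11.5% of the Grem1 level of pooled fibroblasts, beside 9.59% for Dcn and 11.6% for Adamdec1, both fibroblast genes. In the small intestine the same shares were lower throughout, with 2.12% for Grem1 (11.7 CPM, 131 UMIs), 2.55% for Dcn and 2.47% for Adamdec1 in LECs, and Grem1 at 3.65 CPM (8 UMIs) in BECs. Small intestinal SEMFs (6.75 to 11.5 CPM) lay between these LECs (9.77 to 13.9 CPM) and BECs (1.58 to 7.19 CPM), with intervals that overlapped both. The colon LEC UMIs lay in 16 of 217 cells, and Bmp4 was found in 75.0% of those 16 and 7.46% of the other LECs. Whether these UMIs came from free RNA or from mixed cells was not tested. Colon SMCs had 25.9 CPM (20 UMIs) and small intestinal SMCs 162 CPM (454 UMIs; 147 to 177), whose interval overlapped that of small intestinal CD81- FBs. Ordered by level, small intestinal trophocytes came first, then colon trophocytes, colon CD81- FBs, and small intestinal CD81- FBs with SMCs, whose intervals overlapped.

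**Figure D1:**
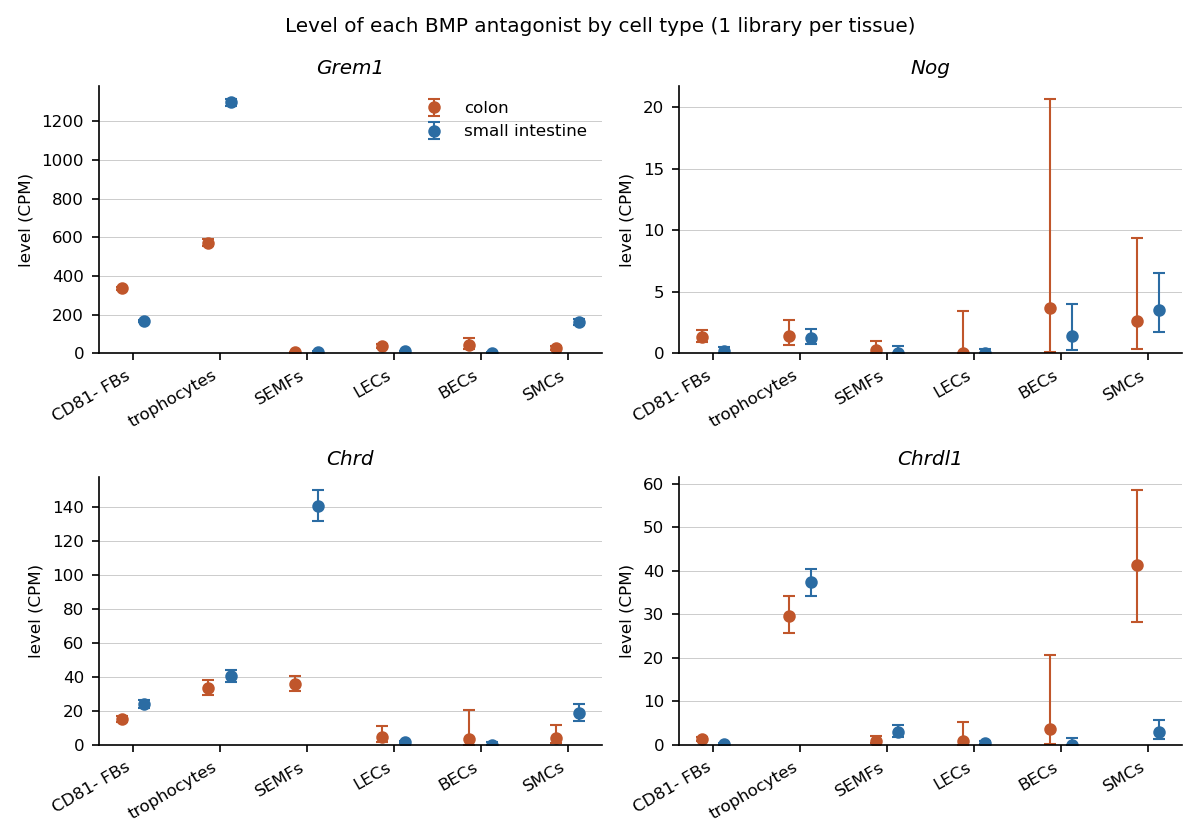
Level of each antagonist (CPM, linear axis from 0) in each of 6 annotated cell types, colon in orange and small intestine in blue, with exact Poisson 95% intervals for counting error, 1 library per tissue. Grem1 was highest in small intestinal trophocytes (1298 CPM), Chrd in small intestinal SEMFs (141 CPM) and Chrdl1 in trophocytes and colon SMCs, while no Nog level passed 4 CPM.

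The tissues differed in opposite directions for the cell types that carried Grem1. In CD81- FBs the colon was higher, with a log2 ratio of colon to small intestine of 1.00 (0.94 to 1.05), and in trophocytes the colon was lower, at -1.18 (-1.23 to -1.13). Of 2 antagonists with at least 100 UMIs in CD81- FBs 0 passed 2-fold, Grem1 lying just inside that limit, where 16.8% of all 12194 genes did. In trophocytes 1 of 3 passed it, Grem1, against 12.5% of all 10454 genes. Between the types, Grem1 in trophocytes was only modestly above CD81- FBs in the colon (log2 ratio 0.77, 0.72 to 0.83) and far above them in the small intestine (2.95). The tissue difference kept its direction in colon cells with Xist UMIs only, at 0.88 in CD81- FBs and -1.44 in trophocytes, and in those with Y-linked UMIs only, at 1.11 and -0.94. For LECs the ratio was 1.61 (1.05 to 2.14), with the endothelial share of Dcn and Adamdec1 also higher in the colon. It was -1.54 in colon cells with Y-linked UMIs only, a value that rests on very few Grem1 UMIs and has no interval here. For SMCs it was -2.64, from 20 and 454 UMIs, beside the high Adamdec1 of the small intestinal label. The part of free RNA and of mixed cells in these last ratios was not tested. Since the digestion times differed too, tissue and digestion time cannot be told apart in any of these ratios.

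The number of Grem1 molecules per cell separated the trophocytes of the tissues further. In the colon 43.4% of trophocytes had a Grem1 UMI (40.1 to 46.8, exact Clopper-Pearson interval), with a median of 0 per cell, and in the small intestine 86.8% (85.2 to 88.3), with a median of 7. Positive colon trophocytes carried 9.60 UMIs on average (median 5) and positive small intestinal ones 11.7 (median 9), and 6.63% of all colon trophocytes had 20 or more, against 15.9% in the small intestine. Of the CD81- FBs, 1817 of 3631 were positive in the colon and 35.0% in the small intestine, with 4.56 and 3.43 UMIs per positive cell. With every cell thinned to 2000 UMIs, which left out 22 colon and 19 small intestinal trophocytes and 32 and 53 CD81- FBs below that depth, the positive shares were 32.7% and 72.9% for trophocytes and 33.6% and 19.3% for CD81- FBs. At that depth 2.30% of colon LECs and 0.936% of small intestinal LECs had a Grem1 UMI. Thus in the colon trophocytes were no more often Grem1-positive than CD81- FBs at a matched depth, but the positive trophocytes carried more molecules. CD81- FBs held 68.8% of the colon's Grem1 UMIs and trophocytes 30.3%, whereas in the small intestine CD81- FBs held 14.4% and trophocytes 82.8%.

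**Figure D2:**
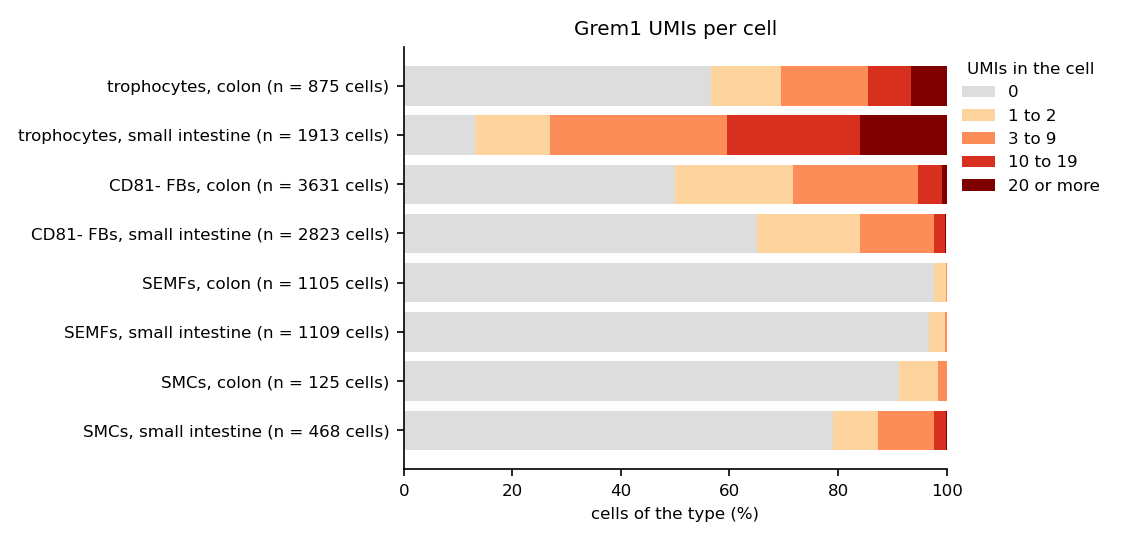
Share of cells (%) of each of 4 labels and tissue by the number of Grem1 UMIs in the cell, from 0 (grey) to 20 or more (dark red), at full depth. The share at 0 was 56.6% in colon trophocytes and 13.2% in small intestinal trophocytes.

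Nog was barely detected. Its 47 colon UMIs came mainly from CD81- FBs (33 UMIs, 1.34 CPM) and trophocytes (9 UMIs, 1.41 CPM), with 2 in SEMFs, 2 in SMCs, 1 in BECs and 0 in LECs. Its 36 small intestinal UMIs lay in trophocytes (19 UMIs, 1.26 CPM), SMCs (10 UMIs, 3.56 CPM), CD81- FBs (4 UMIs) and BECs (3 UMIs), with 0 in SEMFs and LECs. The 0 of 1109 small intestinal SEMFs allows a share of up to 0.271% of cells with a UMI, taken as 3 counts over the number of cells, and the 0 of 217 colon LECs up to 1.38% (the exact intervals end at 0.332% and 1.69%). The highest share of cells with a Nog UMI in any label was 2.14%, in small intestinal SMCs (1.03 to 3.89). The ratio of colon to small intestine in CD81- FBs was 2.75 on the log2 scale, but with an interval of 1.26 to 4.71 from 33 and 4 UMIs, of which 6 of the 33 were in 1 cell. Differences of Nog between trophocytes of the tissues were not detectable at this depth (0.16, -1.17 to 1.37).

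Chrd had another distribution, shared by all 3 fibroblast types and led by SEMFs in the small intestine. Small intestinal SEMFs were highest, at 141 CPM (132 to 150; 917 UMIs), with a UMI in 51.7% of cells. Colon SEMFs were at 35.9 CPM (31.7 to 40.5; 267 UMIs), with a UMI in 18.5% of cells. Trophocytes had 33.6 CPM (colon) and 40.5 CPM (small intestine), and CD81- FBs 15.2 and 24.0 CPM. Low counts per cell went with these levels: positive cells of the 3 fibroblast types held 1.08 to 1.60 UMIs of Chrd on average, against 3.43 to 11.7 for Grem1 in its 2 main types. Endothelium held few Chrd UMIs, with 5 UMIs in colon LECs, 17 in small intestinal LECs, 1 in colon BECs and 0 in small intestinal BECs. The colon LEC level was 21.1% of that of pooled fibroblasts, beside 9.59% for Dcn and 11.6% for Adamdec1. SMCs had 3 UMIs in the colon and 52 in the small intestine (18.5 CPM), again in the label that held Adamdec1. In the colon SEMFs and trophocytes did not differ beyond counting error (log2 ratio 0.10, -0.17 to 0.36), and in the small intestine SEMFs were higher (1.80, 1.65 to 1.95).

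Within SEMFs the colon had less Chrd than the small intestine, with a log2 ratio of -1.97 (-2.17 to -1.77). Chrd was the only one of the 4 with 100 UMIs in that comparison and so 1 of 1 passed 2-fold, where 20.5% of all 10001 genes did. The ratio was -1.93 in colon cells with Xist UMIs only and -1.74 in those with Y-linked UMIs only. In CD81- FBs and trophocytes the colon was lower by less, at -0.66 (-0.86 to -0.46) and -0.27 (-0.50 to -0.04). Grem1 and Chrd differed in opposite directions between CD81- FBs and SEMFs, though both were higher in trophocytes than in CD81- FBs (Chrd by 1.14 in the colon and 0.75 in the small intestine). From CD81- FBs to SEMFs Grem1 was lower (-6.16 in the colon and -4.24 in the small intestine) and Chrd higher (1.24, 1.01 to 1.47, and 2.55, 2.39 to 2.71). In each tissue both of the 2 antagonists with 100 UMIs passed 2-fold in this comparison, 1 in each direction, where 13.4% of genes did in the colon and 15.5% in the small intestine.

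Chrdl1 was close to restricted to trophocytes among the fibroblasts, at a level like that of Chrd there. Colon trophocytes had 29.7 CPM (25.6 to 34.2; 189 UMIs, 13.3% of cells) and small intestinal ones 37.3 CPM (34.3 to 40.5; 561 UMIs, 19.9% of cells). CD81- FBs had 31 UMIs in 3631 colon cells (1.25 CPM) and 2 UMIs in 2823 small intestinal cells (0.0992 CPM), and SEMFs 7 and 19 UMIs. The log2 ratio of trophocytes to CD81- FBs was 4.56 in the colon (4.01 to 5.16) and 8.56 in the small intestine (6.70 to 11.60, resting on those 2 UMIs). With Grem1, Chrd and Chrdl1 counted, 2 of 3 were past 2-fold higher in trophocytes than in CD81- FBs in the colon (Chrd and Chrdl1). In the small intestine it was also 2 of 3 (Grem1 and Chrdl1). Of all genes, 4.69% (colon) and 4.38% (small intestine) were past 2-fold higher. In either direction 13.1% and 11.2% passed 2-fold. The other site of Chrdl1 was colon SMCs, at 41.4 CPM (28.3 to 58.5; 32 UMIs in 24 of 125 cells), against 2.85 CPM (8 UMIs) in small intestinal SMCs. The SMC ratio of colon to small intestine was 3.86 on the log2 scale (2.71 to 5.19). It rests on fewer than the 100 UMIs asked for in the counts past 2-fold. The small intestinal SMC label also held 9211 CPM of Adamdec1, and the part of mixed cells in this ratio was not tested. Endothelium held 6 Chrdl1 UMIs in all, 1 in each colon label and 4 in small intestinal LECs.

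The tissues differed little for Chrdl1 in trophocytes, with a log2 ratio of -0.33 (-0.58 to -0.09), and its direction rested on the mix of colon cells. Colon trophocytes with Xist UMIs only had 39.5 CPM of Chrdl1 and those with Y-linked UMIs only 19.1 CPM, which gave ratios to the small intestine of 0.08 and -0.97. Grem1 showed the other order, with 478 CPM in Xist-only and 676 CPM in Y-linked-only colon trophocytes, and Chrd hardly any difference, with 34.4 and 32.0 CPM. Cells with Xist and with Y-linked UMIs shared 1 library, and how many animals of each sex they stand for is not given in the labels, so sex and animal cannot be told apart.

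Ligand transcripts were set beside those of the antagonists in each cell type, without a measure of protein or of position in the tissue. Bmp2, Bmp4, Bmp5 and Bmp7, summed, were highest in SEMFs, at 2621 CPM (colon) and 2514 CPM (small intestine), and the 4 antagonists, summed, were at 41.8 and 152 CPM there. Since 3' tags count molecules whatever the transcript's length, CPM of different genes were summed without a length correction, though capture may differ between genes. In trophocytes the order was turned, with 638 CPM of antagonists and 301 CPM of ligands (colon; log2 ratio 1.08, 1.01 to 1.16), and 1377 and 277 CPM (small intestine; 2.31, 2.26 to 2.36). With these 4 antagonists and 4 ligands counted, trophocytes were the one label of the 6, in either tissue, with more antagonist than ligand transcripts. Other antagonists are outside this sum and turn the order for some labels: the 15 listed ones beside the 4 summed to 3272 and 3173 CPM in Chrd-positive and Chrd-negative colon SEMFs, against 2937 and 3030 CPM for the 10 listed ligands. In colon CD81- FBs with and without Grem1 they summed to 1402 and 1563 CPM, against 1320 and 1281 CPM of ligands. Colon CD81- FBs had 353 against 1070 CPM (-1.60) and small intestinal ones 192 against 801 CPM (-2.06). Colon SMCs had 73.8 against 948 CPM (-3.68), and small intestinal SMCs 187 against 674 CPM (-1.85). Grem1 made up at least 72.7% of the antagonist UMIs of a label except in SEMFs, where Chrd gave 85.9% (colon) and 92.3% (small intestine), and in colon SMCs, where Chrdl1 gave 56.1%. At least 1 of the 4 transcripts was found in 59.1% of colon and 90.8% of small intestinal trophocytes, and 2 or more in 17.4% and 37.6%.

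**Figure D3:**
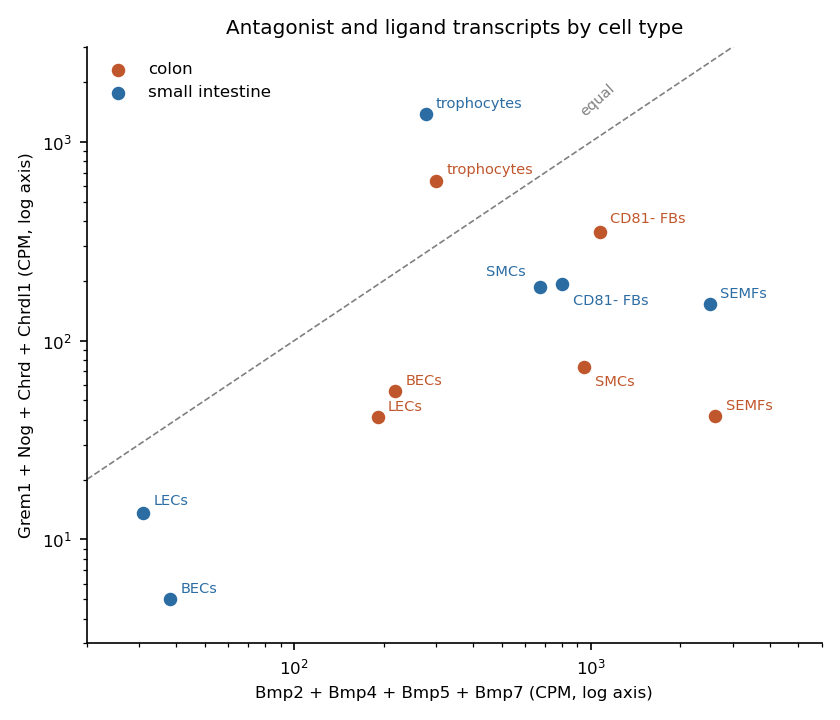
Summed level of the 4 antagonists against the summed level of Bmp2, Bmp4, Bmp5 and Bmp7 (CPM, both axes logarithmic), 1 point per cell type and tissue, with a dashed line of equal levels. Only the 2 trophocyte points lie above the line, and SEMFs lie farthest to the right, at 2621 and 2514 CPM of ligand.

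Ligands one by one followed the same layout. Bmp4 was broad, at 838 and 525 CPM in colon and small intestinal SEMFs, 719 and 441 in CD81- FBs, 517 and 372 in SMCs, and 241 and 220 in trophocytes. Bmp5 was at 1215 and 1539 CPM in SEMFs and only 14.3 and 3.86 CPM in trophocytes, and Bmp7 at 189 and 307 CPM in SEMFs and 1.57 and 0.333 CPM in trophocytes. Colon SEMFs stood out for Bmp2, with 379 CPM, while small intestinal CD81- FBs (167 CPM) and SEMFs (144 CPM) were near each other. Bmp3 was at 225 and 255 CPM in SEMFs and at most 8.45 CPM elsewhere, and Bmp6 was shared by CD81- FBs (220 and 194 CPM) and SEMFs (155 and 246 CPM). Trophocytes led for a pair of related ligands instead, Gdf10 (67.5 and 25.0 CPM) and Gdf6 (9.42 and 57.0 CPM). Gdf11 stayed at 10.4 CPM or less in all labels.

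Co-detection in single cells was compared after thinning each cell to 2000 UMIs, since deeper cells are positive for more genes. In trophocytes, Chrdl1 was more frequent in cells with Grem1 than in cells without it. In the small intestine 8.77% of Grem1-positive trophocytes (7.33 to 10.4) and 3.50% of Grem1-negative ones (2.09 to 5.48) had a Chrdl1 UMI. In the colon the shares were 6.81% (4.15 to 10.4) and 3.66% (2.28 to 5.54), whose intervals overlapped. Chrd did not follow Grem1 in trophocytes, with 6.81% and 5.92% in the colon and 7.97% (6.60 to 9.53) and 11.7% (9.03 to 14.8) in the small intestine. In CD81- FBs it did: Chrd was found in 4.22% of Grem1-positive and 2.43% of Grem1-negative colon cells, and in 6.54% and 4.43% in the small intestine, where the intervals overlapped. Chrd and Chrdl1 were found together in trophocytes about as often as independent detection gives in the small intestine, in 13 cells (1.04 times), and in the colon in 4 cells. In colon CD81- FBs, where Chrdl1 was rare, it was found in 4 of 109 Chrd-positive cells (3.67%, 1.01 to 9.13) and in 0.372% of Chrd-negative ones (0.198 to 0.636). Nog was too rare for pairs, with at most 3 cells positive for it and Grem1 in any label after thinning.

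**Figure D4:**
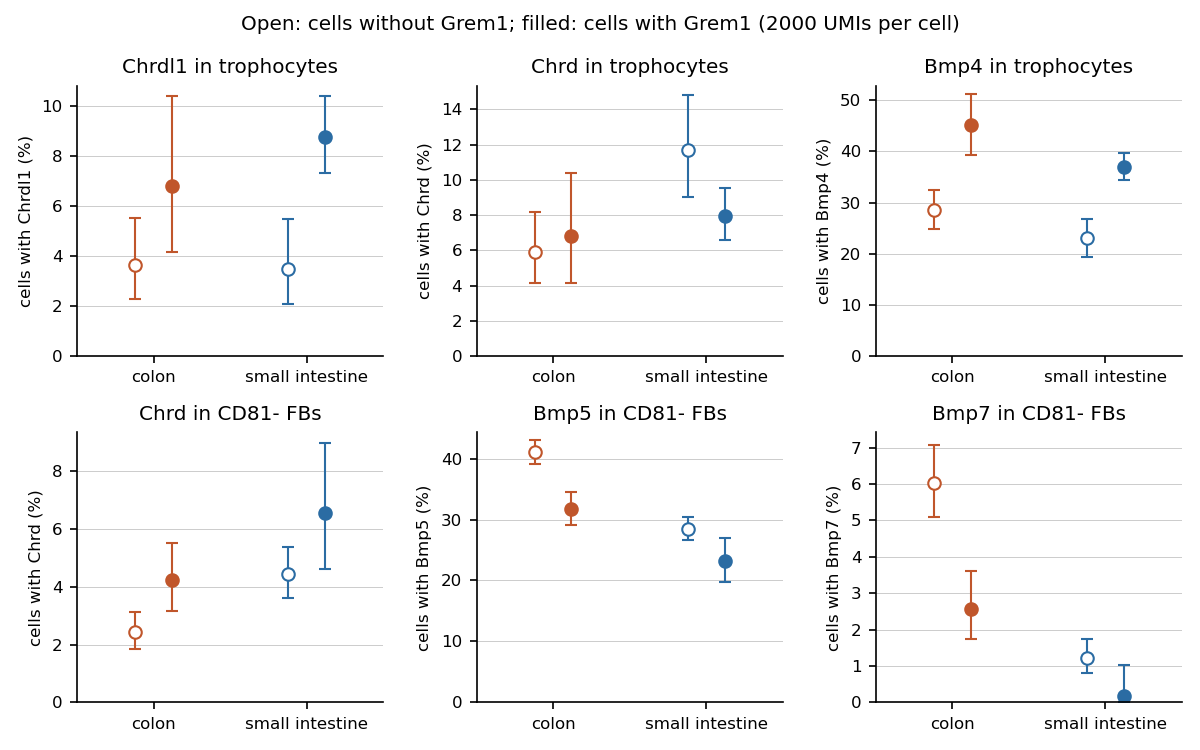
Share of cells (%, linear axes from 0) with a UMI of the gene in the panel title, in cells without Grem1 (open circles) and with Grem1 (filled circles), after thinning to 2000 UMIs per cell, with exact 95% intervals for counting error. Bmp4 was more frequent in Grem1-positive trophocytes (45.2% against 28.6% in the colon), and Bmp5 and Bmp7 less frequent in Grem1-positive CD81- FBs in both tissues.

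The ligands divided by cell type in how they went with Grem1. In trophocytes Bmp4 was found in 45.2% of Grem1-positive and 28.6% of Grem1-negative cells in the colon, and in 37.0% and 23.0% in the small intestine. In CD81- FBs Bmp5 and Bmp7, the SEMF ligands, were less frequent beside Grem1. Bmp7 was found in 2.56% of Grem1-positive and 6.03% of Grem1-negative cells in the colon and in 0.187% and 1.21% in the small intestine, where 1 positive cell was left. Bmp5 was found in 31.8% and 41.1% in the colon and in 23.2% and 28.5% in the small intestine. Bmp4 in CD81- FBs had no common direction, with 75.3% and 70.9% in the colon and 52.3% and 58.7% in the small intestine. In SEMFs Bmp2 was found in 24 of 81 Chrd-positive colon cells (29.6%) and 44.5% of Chrd-negative ones (41.4 to 47.7), and in the small intestine in 18.8% (14.3 to 24.0) and 21.5% (18.7 to 24.5). In small intestinal CD81- FBs Chrd-positive cells had Bmp2 more often (35.1%, 27.0 to 43.8, against 24.9%, 23.2 to 26.6) and Bmp5 in 18.7% against 27.9%, while in the colon Bmp2 was found in 5.50% (2.05 to 11.6) against 8.60% (7.69 to 9.58). Chrdl1-positive small intestinal trophocytes had Bmp4 in 47.5% (39.0 to 56.1) against 32.0% (29.8 to 34.3), and colon ones in 27.5% against 34.3%.

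Other genes showed which trophocytes carried Grem1. Genes of the marker and ligand lists were compared by CPM between Grem1-positive and Grem1-negative cells, and those named here were picked after their values were seen. Pi16, a marker of adventitial progenitor-like fibroblasts, was lower in Grem1-positive trophocytes in both tissues: the colon had 110 against 437 CPM (log2 ratio -1.99, -2.17 to -1.82) and the small intestine 124 against 433 CPM (-1.81, -1.93 to -1.68). The ligands Bmp6 (-0.74 and -1.51) and Gdf10 (-0.64 and -1.73) were lower as well. Edil3, from the CD81- FB marker list, was higher, at 36.0 against 10.2 CPM (1.82, 1.26 to 2.41) and 112 against 19.1 CPM (2.55, 2.07 to 3.07), and so was Bmp4 (0.76 and 1.00). Other markers of the same lists went elsewhere: Ccl11, a CD81- FB marker, was lower in both tissues (-0.23 and -0.62), and Ackr4, a trophocyte marker, was higher in both (0.57 and 0.13). The 8 trophocyte markers, summed, did not follow Grem1 (0.03 and -0.03). Of 16 genes of the trophocyte, CD81- FB and BMP ligand lists with at least 100 UMIs in each tissue, 13 had the same sign in both. Some of these values lay near 0, and the share over all genes was not computed, so the count has no background. The split was chosen by Grem1, whose 0 counts fall more often on shallow cells. The positive cells had a median of 7439 UMIs and the negative ones 6935 in the colon, and 7857 and 7452 in the small intestine. Cd81 itself differed little (-0.05 and -0.13). In the small intestine Grem1-positive trophocytes also had more Cxcl13 (162 against 14.8 CPM, 3.45), a chemokine for B cells, and more of the pericyte-list gene Rgs5 (143 against 17.0 CPM, 3.07), for which the colon values were -0.03 and -1.28. Chrdl1 was at 41.4 CPM in Grem1-positive and 9.54 CPM in Grem1-negative small intestinal trophocytes (2.12, 1.44 to 2.88), and at 38.5 and 22.7 CPM in the colon (0.76, 0.33 to 1.20).

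**Figure D5:**
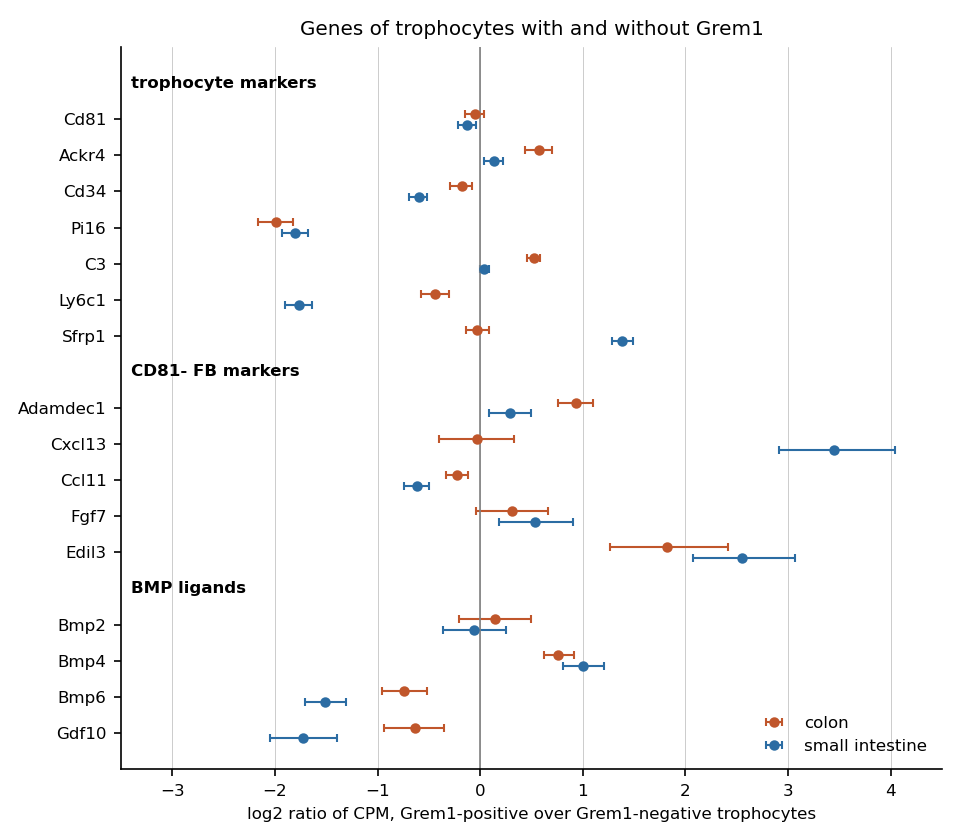
Log2 ratio of CPM between Grem1-positive and Grem1-negative trophocytes for 7 trophocyte markers, 5 CD81- FB markers and 4 BMP ligands with at least 100 UMIs in each tissue, with exact 95% intervals for counting error. Pi16 lies near -1.99 and -1.81 and Edil3 at 1.82 and 2.55, whereas Cxcl13 and Sfrp1 are higher in the small intestine only.

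By summed CPM, Grem1-positive CD81- FBs had more trophocyte marker transcripts and fewer of their own markers than Grem1-negative ones. The 8 trophocyte markers summed to 1679 CPM in Grem1-positive and 1403 CPM in Grem1-negative colon cells, and to 3641 and 2603 CPM in the small intestine. The 5 CD81- FB markers summed to 5954 against 9165 CPM and to 7869 against 10787 CPM. Single genes carried much of these sums. Over all CD81- FBs, Sfrp1 gave 911 of 1544 CPM of the trophocyte list (colon) and 1482 of 2987 CPM (small intestine). Its levels in trophocytes were lower, at 395 and 999 CPM. Adamdec1 gave 5608 of 7519 CPM and 8191 of 9705 CPM of the CD81- FB list. Cd81 was higher in the positive cells, at 49.6 against 25.8 CPM (colon) and 16.4 against 3.31 CPM (small intestine), all far under the 585 and 560 CPM of trophocytes. Nrg1, an epidermal growth factor family ligand, was lower in them, at 14.3 against 77.0 CPM (-2.43) and 11.8 against 97.2 CPM (-3.04). In the small intestinal SMC label the 98 Grem1-positive cells likewise had fewer smooth muscle transcripts (2518 against 4721 CPM over 6 markers) and more trophocyte markers (2043 against 1103 CPM over 8). They also had more transcripts of 4 immune markers (295 against 55.8 CPM) and of 6 lymphatic markers (523 against 291 CPM) and more UMIs per cell (median 7090 against 5231), and the part of mixed cells was not tested. In colon SEMFs the 204 Chrd-positive cells had 1476 CPM over 12 BMP response genes against 2315 CPM in Chrd-negative ones, and in the small intestine the sums were 678 and 790 CPM. Id3 and Id1 led that list in all colon SEMFs, at 1210 and 540 CPM. The Chrd-positive cells were also deeper (median 7459 against 6151 UMIs in the colon, 5938 against 5072 in the small intestine). The part of depth in these sums was not tested.

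Of 17 other secreted antagonists, several reached levels like those of Grem1 or above Chrd, Chrdl1 and Nog. Nbl1, a DAN-family relative of Grem1, was at 1466 and 1923 CPM in SEMFs, and Twsg1, which binds chordin and BMPs, at 455 and 195 CPM there. Fstl1 was broad, at 701 and 573 CPM in trophocytes, 371 and 596 CPM in CD81- FBs and 482 and 584 CPM in SMCs. Htra1, a secreted protease that dampens signalling of the family, was at 714 CPM in colon SEMFs and 553 CPM in colon CD81- FBs against 159 and 117 CPM in the small intestine. Chrdl2 was, like Chrdl1, a transcript of colon SMCs (29.8 CPM, against 1.43 CPM in the small intestine). Small intestinal SEMFs had 448 CPM of Smoc2, against 23.3 CPM for colon SEMFs, and Smoc1 was at 23.3 (colon) and 20.1 CPM (small intestine) in the same cells and at 40.1 CPM in colon SMCs. Crim1 marked endothelium, at 389 and 919 CPM in BECs. Fst, the activin antagonist follistatin, was highest in SEMFs for the colon (22.9 CPM) and in trophocytes for the small intestine (20.3 CPM). Low levels were found for the rest: Bmper reached 31.0 CPM in small intestinal SMCs and 6.91 CPM at most in the colon, Fstl3 80.3 CPM in colon SMCs, Dand5 40.0 CPM in colon trophocytes and Kcp 26.1 CPM in small intestinal SEMFs. In trophocytes 11 of the 17 had 100 UMIs, of which 1 was past 2-fold higher in the colon (Dand5, 1.45) and 4 lower (Fst, Bmper and Smoc2 among them; median log2 ratio 0.22, against -0.11 for all genes), where 4.23% of all genes were higher and 8.24% lower.

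Genes known to respond to BMPs were mostly higher in the colon in CD81- FBs. Of 11 BMP response genes and feedback inhibitors with 100 UMIs in CD81- FBs, 8 were past 2-fold higher in the colon and 1 lower (Smurf2), with a median log2 ratio of 1.45 against -0.22 for all genes, of which 6.46% were higher and 10.4% lower. In SEMFs 4 of 8 were higher (Id1, Id3, Smad7 and Bambi), with a median of 1.43 against -0.33 for all genes. Smurf2 was lower there by marginally more than 2-fold (76.8 against 154 CPM). Of all genes in SEMFs, 5.36% were higher and 15.1% lower. In trophocytes 2 of 9 were higher (Id1 and Id4) and 0 lower (median 0.46 against -0.11), against the 4.23% and 8.24% of all genes given above. Id3, Id4, Smad7 and Bambi, like Neo1 and Tll2 further on, are named from these counts, after their values were seen. Id1, a direct SMAD target, was at 174 against 6.55 CPM in CD81- FBs (4.73, 4.48 to 4.99), 540 against 90.6 CPM in SEMFs and 51.7 against 3.39 CPM in trophocytes. The ubiquitin ligases Smurf1 and Smurf2 were lower in colon CD81- FBs (-0.98 and -1.18), and Hey1 was higher there (1.76). Among transducers, Smad9 was higher in colon CD81- FBs (14.7 against 4.02 CPM, 1.87), while Smad1 (-0.97), Smad4 (-0.43) and Smad5 (-0.49) were slightly lower. Among receptors, Bmpr1b had 44.8 CPM in small intestinal trophocytes and 0.942 CPM (6 UMIs) in colon ones (-5.57, -7.02 to -4.44), and 1 of 11 receptors and co-receptors was past 2-fold higher in colon trophocytes (Rgmb, 1.13) and 2 were lower (Bmpr1b and Neo1), where 12.5% of all genes passed 2-fold. Tgfbr3 was at -0.92 and Acvrl1 at 0.47 in CD81- FBs.

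Proteases that cleave chordin were found in different cells. Bmp1, the tolloid protease that cleaves chordin, was at 42.9 CPM for colon SEMFs and 98.7 CPM for small intestinal ones (-1.20, -1.40 to -1.01), so that it and Chrd were both lower in colon SEMFs. Its relative Tll1 was an endothelial transcript, at 138 and 419 CPM in LECs and 22.2 and 349 CPM in BECs, and reached only 7.05 CPM in fibroblasts. Pcolce, an enhancer of that protease on collagen, differed by 0.50 in CD81- FBs. Sfrp2, a secreted Wnt modulator also tied to tolloid proteases, was a colon transcript, at 42.7 CPM in colon CD81- FBs and 0.149 CPM (3 UMIs) in small intestinal ones (8.16, 6.61 to 10.44). Of 4 listed genes with 100 UMIs in SEMFs, 0 were past 2-fold higher in the colon and 2 lower (Bmp1 and Tll2), where 20.5% of all genes passed 2-fold.

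Likeness over the 12 levels (6 types in 2 tissues) was described with the Pearson correlation of log2(CPM + 1), among 6083 genes of at least 50 CPM in any level. The points share 2 libraries, so these are descriptions. Grem1 was most like Rhou (0.95) and Cd248 (0.95). Chrd was most like Pdgfra (0.97), the receptor that defines SEMFs by its level, and like Ptgis (0.97) and Osbpl1a (0.96). Chrdl1 had weaker partners, Vit (0.81), Olfml2b (0.78) and Chodl (0.77), of which Chodl had a Spearman correlation of 0.31. Between the antagonists the values were low, at 0.38 for Grem1 and Chrd, 0.52 for Grem1 and Chrdl1 and 0.30 for Chrd and Chrdl1. Nog, with 83 UMIs in all, was not ranked.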

How the data were processed

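Cells of 1 colon and 1 small intestinal library were analysed. Per the submitters' processing notes, the authors used Cell Ranger 7.1.0, Seurat 4 and the mm10 build. The authors deposited UMI counts per gene and cell, cell type labels and a natural log table. That table was checked on the files to be the natural log of 1 plus depth-scaled UMIs. Turned back to linear values, it gave the ratios with equal weight per cell, and the UMI counts gave all others. Counts totalled 40684070 (colon) and 58134526 UMIs (small intestine). Symbols matched GENCODE names for 98.7% and 98.4% of genes.

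UMIs were summed per library and label, in which endothelial sublabels were pooled as BECs, and divided by the label's total to give CPM. Levels carry exact Poisson, shares exact Clopper-Pearson and ratios exact conditional binomial intervals (95%), all for counting error only. Only the ratio intervals were tried on simulated data. Those counts were Poisson, the model the intervals assume, so the trial cannot show how they hold with spread beyond counting error. A ratio against a count of 0 used a floor of 3 UMIs. No p-value was computed, since cells are not replicates and each tissue had 1 library. Genes with at least 100 UMIs over both sides entered counts past 2-fold. Cells were thinned to 2000 UMIs for shares at matched depth, and shallower cells were left out. The members, gene lists and rules were chosen with earlier results of these data known. Named were the 4 members, other antagonists and ligands of at least 10 CPM in any level, the 2 genes of highest and 2 of lowest tissue ratio in pooled fibroblasts of each other pathway list, and the 3 genes most like each member. Genes met by this rule that are withheld are not reported here. Markers named beside them were picked after their values were seen. Alternatives were other totals, equal weight per cell, scaling to the median gene, leaving out the deepest 5% of cells or the cell with most UMIs of a gene, colon cells split by Xist and Y-linked UMIs, thinning, a 2-UMI cut-off, Spearman correlation, a 20-UMI minimum and 4-fold. Python 3.11.15, numpy 2.4.6, scipy 1.17.1, pandas 2.3.3 and matplotlib 3.10.9 were used.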

Additional observations from a re-analysis of the deposited data

Results flagged for a closer look

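Grem1 differed between colon and small intestine in opposite directions in different cell types. The log2 ratio of colon to small intestine was 1.00 in CD81- FBs and 1.61 in LECs, but -1.18 in trophocytes and -2.64 in SMCs. Each tissue was 1 library, so the difference between cell types was not tested. The LEC value rests on 38 colon and 131 small intestinal UMIs. It was -1.54 in colon cells with Y-linked UMIs only, which held very few of those 38 UMIs. The SMC value rests on 20 colon UMIs beside a small intestinal label with 9211 CPM of Adamdec1.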

How the results depend on the processing

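Of 104 recomputed log2 ratios, 82 stayed within the interval of the reported value, 20 moved past it and 2 changed sign. The sign changes were Chrdl1 between the tissues in trophocytes (0.08 with Xist-only colon cells) and Grem1 in LECs (-1.54 with Y-linked-only colon cells). The latter rests on very few Grem1 UMIs. The rest whose interval lay on 1 side of 0 kept their direction. Cells with Grem1 and Chrd in trophocytes, over the number for independent detection, crossed 1, from 1.01 to 0.888 thinned (small intestine) and from 1.08 to 0.952 with Xist-only cells (colon). Relative to the median gene, the Grem1 tissue ratio was -1.07 in trophocytes and 1.22 in CD81- FBs, the Chrd ratio in SEMFs -1.64, and the Grem1 ratio of trophocytes to CD81- FBs 0.87 (colon) and 3.17 (small intestine). With Y-linked-only and Xist-only colon cells, Grem1 was at -0.94 and -1.44 in trophocytes, 1.11 and 0.88 in CD81- FBs, and 0.90 and 0.63 between those types, and Chrd in SEMFs was at -1.74 with Y-linked-only cells. Shares depend on depth and cut-off: Grem1-positive trophocytes were 32.7% thinned and 34.6% at 2 UMIs in the colon, and 72.9% and 79.3% in the small intestine. The same values were 33.6%, 36.9%, 19.3% and 23.0% for Grem1 in CD81- FBs, and 7.39%, 4.34%, 24.7% and 20.5% for Chrd in SEMFs. Cells with Grem1 and Bmp7, over the number for independent detection in CD81- FBs, stood at 0.527 thinned (0.595 with Y-linked-only cells) in the colon and 0.185 thinned in the small intestine. Past 4-fold instead of 2-fold were 4.29%, 2.80% and 4.26% of genes between the tissues (CD81- FBs, trophocytes, SEMFs), 4.72% and 4.01% between trophocytes and CD81- FBs (colon, small intestine) and 5.47% and 6.97% between SEMFs and CD81- FBs. The cause of these shifts was not tested, except that thinning and a higher cut-off lower shares by construction. No paired analysis was possible because each tissue had 1 library. Depth limits Nog in every label and Chrdl1 outside trophocytes. Differences between animals and preparations are not covered by any interval.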

Other observations

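The few cells outside the 6 labels held little of the antagonists. The 12 other colon cells had 2 Grem1, 1 Chrd, 3 Chrdl1 and 0 Nog UMIs, and the 24 other small intestinal cells had 4 Chrd UMIs and none of Grem1, Nog or Chrdl1.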
